A study of Mus musculus with 9 samples.

Results

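The 10 genes described here are the standard marker genes of the fat cell: *Adipoq*, *Fabp4*, *Plin1*, *Plin4*, *Lep*, *Cidec*, *Pparg*, *Lpl*, *Cfd* and *Retn*. They were chosen by name, because a mammary tumor grows in the mammary fat pad, and all 10 were found among the 35275 genes of the count table. RNAseq was performed on 9 spontaneous mammary gland tumors, 3 after saline, 3 after free Talazoparib given intravenously (i.v. Talazoparib) and 3 after NanoTLZ, a liposomal nanoparticle that carries Talazoparib. Talazoparib inhibits PARP, an enzyme that repairs single-strand DNA breaks. All 9 mice, the saline controls included, were Brca1Co/Co;MMTV-Cre;p53+/-, which means that *Brca1* was deleted by a Cre recombinase driven by the MMTV promoter, active mainly in mammary epithelium, in animals with 1 intact copy of *p53*. Their age at harvest is not given in the sources used here. Treatment began when a tumor was 4 to 5 mm in diameter and consisted of 5 doses given 3 times a week, at 0.33 mg/kg per dose in the groups that received Talazoparib. RNA was taken from dissected, flash-frozen tumors that were not sorted by cell type, and the sources do not say how much surrounding fat pad was left on each. No tumor of the sequenced groups received the empty nanoparticle, so the drug and its carrier cannot be told apart in NanoTLZ.

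A white fat cell stores triglyceride in a single large lipid droplet, coated by perilipins and enlarged by CIDE proteins. It takes up fatty acids that lipoprotein lipase releases from blood lipoproteins, and it secretes hormones called adipokines, such as adiponectin and leptin. The nuclear receptor PPARγ, together with C/EBP transcription factors, switches on most of these genes when a precursor becomes a fat cell. In the mammary gland the epithelial ducts are embedded in such cells, and a growing tumor replaces or invades them.

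The total count per tumor lay between 17538380 and 21194980. Levels are given as CPM, the reads on a gene in a library scaled to 1000000 reads after TMM normalization, and 3 counts, taken as the smallest value this depth can show, correspond to 0.138 to 0.172 CPM. All 9 libraries held epithelial RNA. *Epcam*, an epithelial adhesion protein, lay between 604 and 1368 CPM and the luminal keratin *Krt8* between 738 and 2623 CPM. These levels do not tell tumor from normal mammary epithelium. *Brca1* reads remained in every tumor, at 9.46 to 42.7 CPM, and whole-gene counts do not show the excised part. *Trp53*, the gene of p53, was at 23.4 to 45.6 CPM in 8 tumors and at 108 CPM in NanoTLZ replicate 1. In the saline group, replicate 3 carried 725 CPM of 10 skeletal muscle genes and replicate 2 carried 199 CPM, against 5.30 to 35.8 CPM in the other 7 tumors. Only 3 of 15821 tested genes were called between treated and saline tumors, namely the cartilage collagen *Col2a1*, which rose, and the muscle genes *Myh4* and *Myl1*, which fell (edgeR adjusted p = 0.0207 for each), and these were named after their values were seen.

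The promoters of 4 members are shown because the results turn on these genes. *Adipoq* and *Lep* encode the fat cell's best-known hormones, and *Plin4* and *Cfd* are the members with the largest lead in a single tumor. Each window runs from 250 bases before to 50 bases after the start site in RefSeq (GRCm38.p6) and is written 5′ to 3′ on the strand of the gene, with matches to the searched motifs in capitals. The windows are chr16:23146286-23146585 on the plus strand for *Adipoq*, chr6:29059971-29060270 on the plus strand for *Lep*, chr17:56109733-56110032 on the minus strand for *Plin4* and chr10:79890603-79890902 on the plus strand for *Cfd*.
Adipoq: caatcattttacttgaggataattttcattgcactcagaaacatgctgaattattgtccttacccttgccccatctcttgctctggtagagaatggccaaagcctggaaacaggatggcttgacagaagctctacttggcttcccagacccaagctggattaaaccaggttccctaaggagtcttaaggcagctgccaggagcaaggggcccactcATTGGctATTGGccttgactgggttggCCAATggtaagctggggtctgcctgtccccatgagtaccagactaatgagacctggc
Lep: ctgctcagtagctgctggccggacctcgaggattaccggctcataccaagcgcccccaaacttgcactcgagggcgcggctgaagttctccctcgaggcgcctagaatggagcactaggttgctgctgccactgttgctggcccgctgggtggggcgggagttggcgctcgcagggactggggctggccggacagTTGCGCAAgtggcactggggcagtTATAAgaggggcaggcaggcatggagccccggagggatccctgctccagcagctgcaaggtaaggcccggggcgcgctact
Plin4: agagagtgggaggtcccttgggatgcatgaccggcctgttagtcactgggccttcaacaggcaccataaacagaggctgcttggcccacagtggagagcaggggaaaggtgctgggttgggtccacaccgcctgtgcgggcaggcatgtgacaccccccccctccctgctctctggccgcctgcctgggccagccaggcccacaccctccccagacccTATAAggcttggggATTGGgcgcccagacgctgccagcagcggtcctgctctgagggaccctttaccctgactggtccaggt
Cfd: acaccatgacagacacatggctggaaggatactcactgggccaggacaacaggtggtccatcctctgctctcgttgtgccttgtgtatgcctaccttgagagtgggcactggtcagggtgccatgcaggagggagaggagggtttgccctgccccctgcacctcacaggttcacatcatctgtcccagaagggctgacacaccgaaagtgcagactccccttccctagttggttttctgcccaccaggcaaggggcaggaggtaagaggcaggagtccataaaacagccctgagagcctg

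The motifs searched were TTGCGCAA, the palindrome bound by C/EBP proteins, AGGTCA, the half-site of nuclear receptors such as PPARγ, and CCAAT, each on both strands, and TATAA, on the strand shown only. Windows were found for 8 of the 10 members, *Fabp4* and *Lpl* being the other two, and none of the matches in the windows shown overlapped. TTGCGCAA occurred in the *Lep* window, 55 bases before the start site, and in 0.183% of the 32851 promoter windows of the table. TATAA lay 31 bases before the start of *Lep* and 32 bases before that of *Plin4*, and 17.5% of all windows held it. CCAAT, which reads ATTGG on the other strand, was found 3 times in the *Adipoq* window, starting 34, 27 and 7 bases before the start site, and once in that of *Plin4*, against 37.4% of all windows. AGGTCA was found in none of the windows shown but in 2 of the 3 start-site windows of *Pparg* itself, and 16.3% of all windows held it. The windows of *Cfd*, *Plin1*, *Cidec* and *Retn* held none of the motifs.

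All 10 adipocyte genes had their highest level in the same tumor, NanoTLZ replicate 1. Among the 17742 genes with at least 30 counts in all, 5.11% were highest in that tumor. For 7 of the 10 members the level there was at least 2 times that of the next tumor, as for 0.327% of these genes. For 6 of the 10 it was at least 3 times, as for 0.147%. The limit of 30 counts includes the reads of that tumor. *Lep* (37 reads, 27 of them there) and *Plin1* (82 reads, 54 there) reached it only through that tumor. The shares are not matched for count level, so they serve as a rough reference only. The other 2 NanoTLZ tumors lay within or below the range of the saline and i.v. Talazoparib tumors for 9 of the 10 members, *Cidec* being the exception, so the group means below rest largely on 1 tumor. In bulk RNA, a larger number of fat cells and more RNA per fat cell cannot be told apart.

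**Figure D1:**
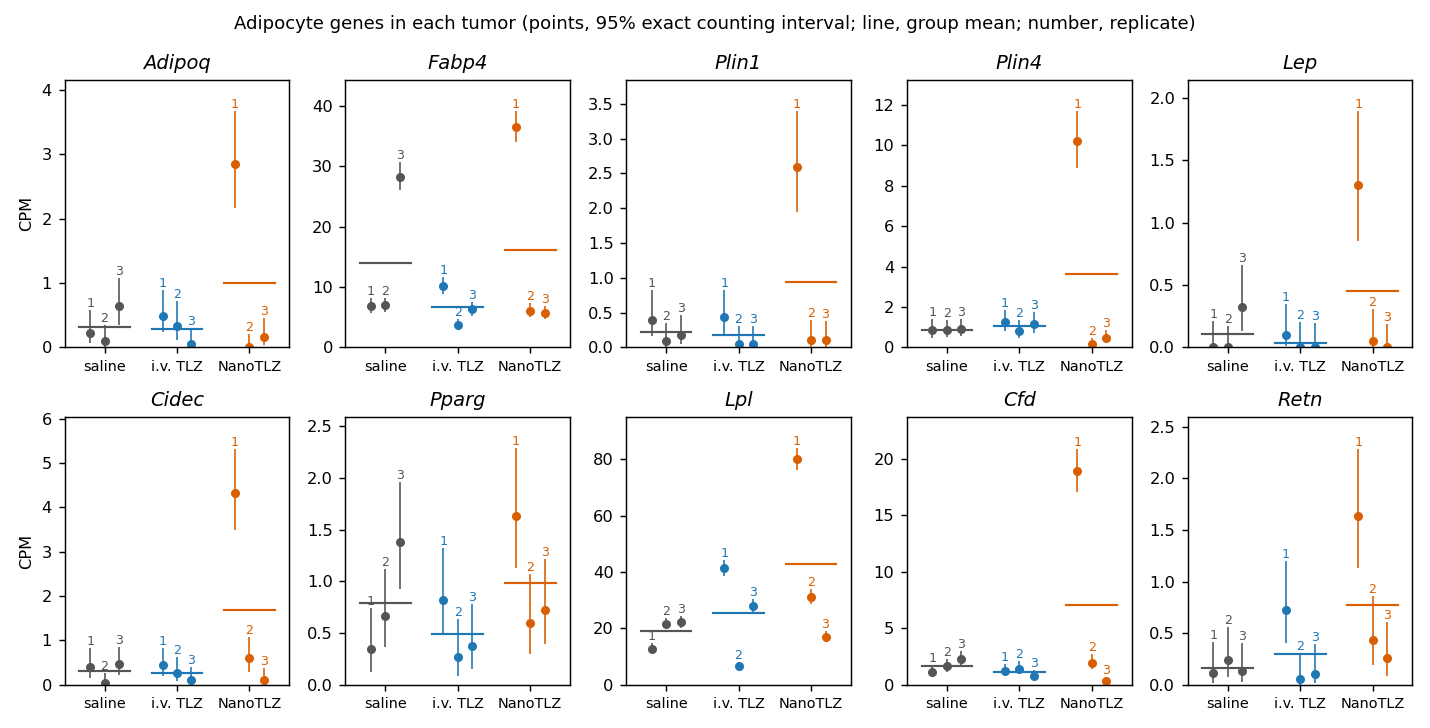
Level of each of the 10 adipocyte genes in CPM (vertical axis, linear, a separate scale per gene) in the 9 tumors, grouped as saline, i.v. TLZ and NanoTLZ. Points are tumors numbered by replicate, vertical bars are 95% exact counting intervals, and horizontal lines are group means; NanoTLZ replicate 1 is the highest point in every panel, at 18.9 CPM for *Cfd* against at most 2.25 CPM elsewhere.

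Each of the 4 adipokine genes was highest in NanoTLZ replicate 1. *Adipoq* (ENSMUSG00000022878, chr16:23146536-23158028, plus strand, GRCm38) encodes adiponectin, a hormone made almost only by fat cells. Its level was 0.229, 0.0953 and 0.642 CPM in saline replicates 1 to 3, 0.485, 0.328 and 0.0541 CPM in i.v. Talazoparib replicates 1 to 3, and 2.84, 0 and 0.155 CPM in NanoTLZ replicates 1 to 3. NanoTLZ replicate 1 held 59 reads and NanoTLZ replicate 2 none, for which the floor of 3 counts is 0.164 CPM and the exact 95% upper limit 0.201 CPM. I.v. Talazoparib replicate 3 held 1 read and saline replicate 2 held 2, also under the floor, so no tumor can be named the lowest. The level in NanoTLZ replicate 1 was 4.42 times that of saline replicate 3, the next tumor.

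*Lep* (ENSMUSG00000059201, chr6:29060220-29073877, plus strand), the gene of the satiety hormone leptin, was the least abundant member. It had 0, 0 and 7 reads in the saline tumors, 2, 0 and 0 in the i.v. Talazoparib tumors and 27, 1 and 0 in the NanoTLZ tumors. Reads were thus listed in 4 of 9 tumors, and 73.0% of them came from NanoTLZ replicate 1, at 1.30 CPM with a 95% counting interval of 0.857 to 1.89. The next tumor, saline replicate 3, was at 0.321 CPM.

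*Cfd* (ENSMUSG00000061780, chr10:79890853-79892655, plus strand) encodes adipsin, the serine protease complement factor D, which fat cells secrete. Its level was 1.14, 1.67 and 2.25 CPM after saline, 1.26, 1.42 and 0.757 CPM after i.v. Talazoparib, and 18.9, 1.97 and 0.310 CPM after NanoTLZ. The lead of NanoTLZ replicate 1 over the next tumor, 8.42 times, was the largest of the 10 members. NanoTLZ replicate 3 had the lowest value of the 9 tumors, with a counting interval that overlapped that of i.v. Talazoparib replicate 3. *Retn* (ENSMUSG00000012705, chr8:3655770-3660110, plus strand) encodes resistin, an adipokine of mouse fat that lowers the response to insulin. Its level was 0.114, 0.238 and 0.138 CPM after saline, 0.727, 0.0547 and 0.108 CPM after i.v. Talazoparib, and 1.64, 0.437 and 0.259 CPM after NanoTLZ. It was the only member whose 3 NanoTLZ tumors all lay above the 3 saline tumors, as did 7.82% of all genes with at least 30 counts, and its lowest NanoTLZ tumor and its highest saline tumor held 5 reads each.

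The 3 genes of lipid droplet coats were also highest in NanoTLZ replicate 1. *Plin1* (ENSMUSG00000030546, chr7:79720218-79732903, minus strand) encodes perilipin 1, which coats the droplet and holds back lipolysis. It was at 0.401, 0.0953 and 0.184 CPM after saline, 0.436, 0.0547 and 0.0541 CPM after i.v. Talazoparib, and 2.60, 0.109 and 0.103 CPM after NanoTLZ. At most 9 reads were counted in any of the other 8 tumors, against 54 in NanoTLZ replicate 1.

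*Plin4* (ENSMUSG00000002831, chr17:56100591-56109803, minus strand), a perilipin of nascent droplets, gave the clearest contrast within a group. It was at 0.858, 0.858 and 0.918 CPM after saline, 1.26, 0.820 and 1.14 CPM after i.v. Talazoparib, and 10.2, 0.164 and 0.466 CPM after NanoTLZ. The saline and i.v. Talazoparib tumors were close to each other, with means of 0.878 ± 0.0343 and 1.07 ± 0.227 CPM (SD, n = 3 each), and all 6 of them lay between the NanoTLZ tumors. *Plin4* overlaps *Hdgfl2* on the opposite strand, which had 1567 reads in NanoTLZ replicate 1, and the strand setting of the counting is not given in the sources used here, so reads of the shared stretch cannot be assigned with certainty. *Cidec* (ENSMUSG00000030278, chr6:113424634-113435760, minus strand) encodes a protein that fuses droplets into 1 large one. Its level was 0.401, 0.0477 and 0.459 CPM after saline, 0.436, 0.273 and 0.108 CPM after i.v. Talazoparib, and 4.33, 0.600 and 0.103 CPM after NanoTLZ. It was the only member whose next-highest tumor was also a NanoTLZ tumor, replicate 2, and the lead was 7.22 times.

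The genes of lipid binding and uptake were the most abundant and had smaller leads. *Fabp4* (ENSMUSG00000062515, chr3:10204088-10208576, minus strand) encodes the fatty acid carrier aP2, which capillary endothelium and macrophages also make. It was at 6.81, 6.96 and 28.3 CPM after saline, 10.2, 3.77 and 6.33 CPM after i.v. Talazoparib, and 36.5, 6.06 and 5.64 CPM after NanoTLZ. Saline replicate 3 and NanoTLZ replicate 1 stood above the other 7 tumors, and the latter was 1.29 times the former. *Lpl* (ENSMUSG00000015568, chr8:68880491-68907448, plus strand) encodes lipoprotein lipase, also a product of macrophages and of the lactating mammary gland. It was at 12.9, 21.6 and 22.2 CPM after saline, 41.3, 6.83 and 27.9 CPM after i.v. Talazoparib, and 80.1, 31.3 and 17.0 CPM after NanoTLZ. NanoTLZ replicate 1 was 1.94 times the next tumor, i.v. Talazoparib replicate 1, and the 3 groups overlapped.

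*Pparg* (ENSMUSG00000000440, chr6:115360951-115490399, plus strand), the nuclear receptor that drives fat cell formation, had the smallest lead. Its level was 0.343, 0.667 and 1.38 CPM after saline, 0.824, 0.273 and 0.379 CPM after i.v. Talazoparib, and 1.64, 0.600 and 0.724 CPM after NanoTLZ. The counting interval of NanoTLZ replicate 1, 1.13 to 2.29 CPM, overlapped that of saline replicate 3, 0.929 to 1.97 CPM. *Pparg* and *Retn* were the members whose interval in NanoTLZ replicate 1 was not above those of all other tumors, and for the remaining 8 it was. Intervals of this kind cover counting error only. An antisense gene, *Gm44079*, overlaps *Pparg* and was not analysed here.

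Summed over the 10 genes, NanoTLZ replicate 1 reached 160 CPM, against 13.8 to 57.1 CPM in the other 8 tumors. Without *Fabp4* and *Lpl*, the members that other cell types also make in quantity, the sum of the 8 remaining genes was 43.5 CPM in NanoTLZ replicate 1 and 2.12 to 6.29 CPM elsewhere. NanoTLZ replicate 3 had the lowest sum of these 8 genes, 2.12 CPM, close to the 2.60 CPM of i.v. Talazoparib replicate 3. Between 24.6% of the reads of *Pparg* and 73.0% of those of *Lep* came from this 1 tumor.

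The spread among NanoTLZ tumors was wide for most members. The SD of log2 CPM over the 3 NanoTLZ tumors had a median of 2.08 over the 10 members, against a median of 0.30 over all tested genes. In the saline group the medians were 0.77 and 0.59, and in the i.v. Talazoparib group 0.70 and 0.47. Only 5 of the 10 members were among the tested genes. The remaining members had 37 to 137 reads in all, and counting error adds to their SD. The medians are not matched for count level. *Plin4* had the largest SD within NanoTLZ, 2.78, and *Pparg* the smallest, 0.70, and 14.1% of tested genes had an SD at least as large as that of *Pparg*.

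Scaled by the length of the principal transcript, levels can be compared between genes. In NanoTLZ replicate 1, *Fabp4* was highest at 40.8 CPM per kb, followed by *Cfd* at 20.5 and *Lpl* at 19.5, with the remaining 7 between 0.399 for *Lep* and 2.52 for *Cidec*. Over the other 8 tumors the order of the median levels per kb was *Fabp4* at 7.33, *Lpl* at 5.33, *Cfd* at 1.45, *Pparg* at 0.359, *Cidec* at 0.196, *Retn* at 0.165, *Plin4* and *Adipoq* at 0.149, *Plin1* at 0.0377 and *Lep* at 0. The ranges of every pair of neighbours in this order overlapped, so the order of neighbours does not exceed the spread between tumors. With the length of all annotated exons in place of the principal transcript, *Fabp4* and *Lpl* in NanoTLZ replicate 1 came to 8.14 and 7.64 CPM per kb, below *Cfd* at 20.5. *Adipoq* thus ranked below *Pparg* by its median in the 8 other tumors and above it, at 2.20 against 0.926 CPM per kb, in NanoTLZ replicate 1.

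**Figure D2:**
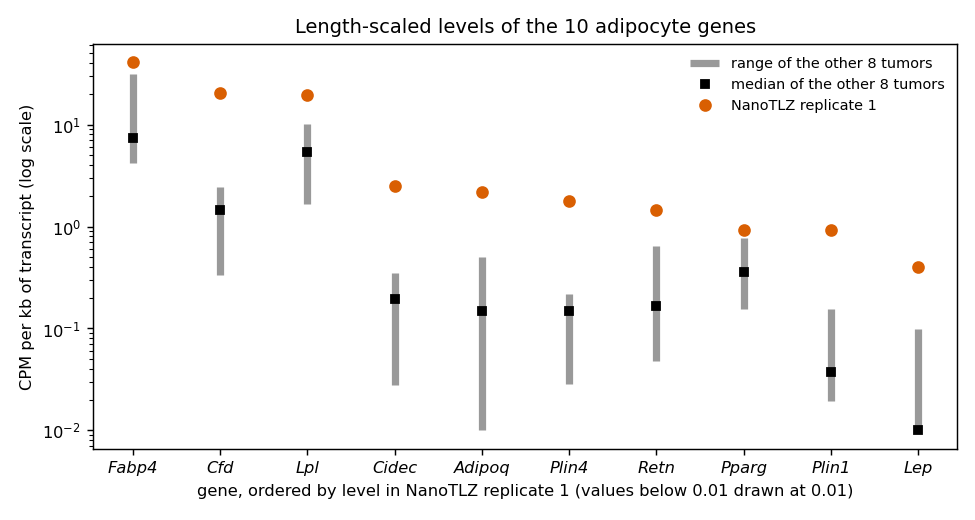
Level of each adipocyte gene per kb of its principal transcript (vertical axis, CPM per kb on a log scale), with genes ordered by their level in NanoTLZ replicate 1. Circles are NanoTLZ replicate 1, squares the median and bars the range of the other 8 tumors, and values below 0.01 are drawn at 0.01; the circle lies above the bar for all 10 genes, at 2.52 against at most 0.349 CPM per kb for *Cidec*.

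After NanoTLZ replicate 1, no single tumor came next for all members. Saline replicate 3 was next for 5 of them (*Adipoq*, *Fabp4*, *Lep*, *Pparg* and *Cfd*), but it was the highest of the other 8 tumors for 26.0% of all genes. I.v. Talazoparib replicate 1 was next for 4 members (*Plin1*, *Plin4*, *Lpl* and *Retn*). Over the 9 tumors, Pearson's r of log2 CPM between the 5 tested members ranged from 0.503 to 0.895 in 10 pairs, with a median of 0.691, and Spearman's rho from 0.217 to 0.783. Without NanoTLZ replicate 1, r ranged from -0.05 to 0.833 with a median of 0.245, and rho from -0.12 to 0.690 with a median of 0.393, against 0.575 with that tumor. *Fabp4* and *Pparg* kept the highest r, 0.895 with it and 0.833 without it. All these points share the libraries and their depth, and no p was computed.

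The comparisons below ask whether the RNA levels of these genes differed between saline tumors and tumors given Talazoparib, free or in nanoparticles. They do not measure the adipocyte content of the tumors. Of the 10 members, 5 passed the filter on low counts and were tested (*Fabp4*, *Plin4*, *Pparg*, *Lpl* and *Cfd*), and *Adipoq*, *Plin1*, *Lep*, *Cidec* and *Retn* did not. Both comparisons with saline use the same 3 saline tumors.

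Between i.v. Talazoparib and saline no adipocyte gene was called at an adjusted p under 0.05 by edgeR's quasi-likelihood test, and 0.0% of the 15821 tested genes were. None of the 5 had an unadjusted p under 0.05, as 10.4% of all genes did. DESeq2 on all 9 tumors gave no p for *Plin4* in any comparison. Here it called 0 of the other 9 members and 194 of 25112 genes. *Fabp4* had a mean of 6.78 ± 3.25 CPM after i.v. Talazoparib and 14.0 ± 12.4 CPM after saline (SD, n = 3 each), a log2 fold change of -1.05 (SE 0.83, edgeR adjusted p = 0.664). *Lpl* was at 25.4 ± 17.4 against 18.9 ± 5.24 CPM (log2 fold change 0.42, SE 0.67, edgeR adjusted p = 0.849). The smallest edgeR adjusted p of the 5 members in this comparison was 0.664. Saline replicate 3 set the size of 2 values: without it the log2 fold change of *Fabp4* was -0.01, and that of *Pparg* went from -0.69 to -0.03.

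Between NanoTLZ and saline the 5 tested members all had positive log2 fold changes, but none was called, against 0.00632% of all genes (1 gene, *Col2a1*). *Cfd* had a mean of 7.06 ± 10.3 CPM after NanoTLZ and 1.69 ± 0.552 CPM after saline, a log2 fold change of 2.06 (SE 1.10, edgeR adjusted p = 0.584). *Plin4* was at 3.61 ± 5.71 against 0.878 ± 0.0343 CPM (log2 fold change 2.03, SE 1.17, edgeR adjusted p = 0.603). *Lpl* was at 42.8 ± 33.1 against 18.9 ± 5.24 CPM (1.18, SE 0.68, edgeR adjusted p = 0.602). For *Cfd*, *Plin4* and *Fabp4* (16.1 ± 17.7 CPM) the SD of the NanoTLZ group exceeded its mean.

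*Pparg* and *Fabp4* had log2 fold changes of 0.30 (SE 0.70) and 0.20 (SE 0.82) in that comparison. No member had an unadjusted p under 0.05 by edgeR, as 8.99% of all genes did, while DESeq2 on all 9 tumors gave such a p for 2 of 9 members, *Cidec* and *Cfd*, and for 1823 of 25112 genes. DESeq2 on the 6 tumors compared gave it for 4 of 9 members, *Cidec*, *Lpl*, *Cfd* and *Retn*, and for 1836 of 24106 genes. Neither fit called a member, while they called 110 of 25112 and 171 of 24106 genes, in that order. However, neither gave a p for *Plin4* or an adjusted p for *Lep*, and the fit on all 9 tumors gave no adjusted p for *Retn*. These members could not be called there. The median log2 fold change of the 5 members was 1.18, against -0.09 for all tested genes. Without NanoTLZ replicate 1 it was -0.57 against -0.09, and the log2 fold changes were -1.45 for *Plin4* (SE 0.73), -1.26 for *Fabp4* (SE 0.75), -0.57 for *Cfd* (SE 0.82), -0.26 for *Pparg* (SE 0.83) and 0.36 for *Lpl* (SE 0.66). Of the 5 positive values, 4 thus changed sign when that tumor was left out, and none was called with or without it.

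**Figure D3:**
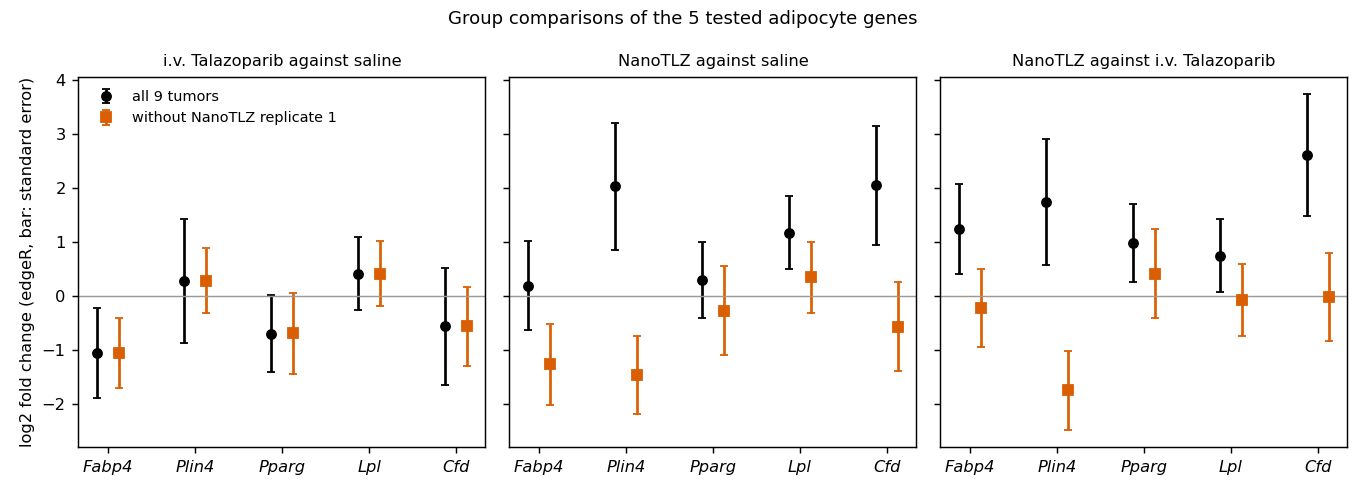
Log2 fold changes of the 5 tested adipocyte genes from edgeR (vertical axis) in 3 comparisons, with all 9 tumors (black circles) and without NanoTLZ replicate 1 (orange squares). Bars are standard errors. *Plin4* goes from 2.03 to -1.45 between NanoTLZ and saline when that tumor is left out, while *Fabp4* stays at -1.05 between i.v. Talazoparib and saline.

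Between NanoTLZ and i.v. Talazoparib the 5 members again had positive log2 fold changes, from 0.75 for *Lpl* to 2.62 for *Cfd* (SE 1.13, with an edgeR adjusted p that rounds to 1), and none was called, against 0.0% of all genes. An unadjusted p under 0.05 by edgeR was found for 1 of the 5 members, *Cfd*, and for 1.68% of all genes. DESeq2 on all 9 tumors gave such a p for 2 of 9 members, *Cidec* and *Cfd*, and for 435 of 25112 genes. It called 0 of 9 members and 3 of 25112 genes. Without NanoTLZ replicate 1 the value for *Cfd* was -0.01 (SE 0.82), and that for *Plin4* went from 1.75 (SE 1.16) to -1.74 (SE 0.73, with an edgeR adjusted p that rounds to 1). Without that tumor *Plin4* was the 1 tested member with an unadjusted edgeR p under 0.05, which 156 of 16243 genes had. The direct comparison of the formulations therefore gave *Plin4* in opposite directions with and without 1 tumor.

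With both Talazoparib groups set against saline, edgeR called 0 of 5 members, against 0.019% of all genes. None had an unadjusted p under 0.05 by edgeR, as 13.1% of all genes did. DESeq2 on all 9 tumors called 0 of 9 members and 273 of 25112 genes. The log2 fold changes were 1.16 for *Plin4* (SE 1.04), 0.80 for *Lpl* (SE 0.60), 0.75 for *Cfd* (SE 0.96), -0.19 for *Pparg* (SE 0.61) and -0.43 for *Fabp4* (SE 0.70). No member had all 6 treated tumors above or all below the 3 saline tumors, which 2.77% and 2.55% of the genes with at least 30 counts had.

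For the 5 members outside the test, the 6 treated and 3 saline tumors were compared by an exact two-sided permutation test of mean log2 CPM over all 84 splits. The exact test gave p = 0.321 for *Retn*, 0.583 for *Cidec*, 0.917 for *Plin1*, 0.940 for *Lep* and 0.964 for *Adipoq*. When the filter on low counts was dropped, so that edgeR tested all 10 members, the 10 log2 fold changes between NanoTLZ and saline were positive with a median of 2.04, and the smallest edgeR adjusted p among them was 0.628. These values carry the same single tumor.

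The other genes of fat were read from lists of the pathways. Of 17 listed genes typical of white fat cells with a row in the table, 10 were tested. None was called in any comparison, where edgeR called at most 0.019% of all tested genes. *Car3*, the carbonic anhydrase abundant in fat and in slow muscle, was at 2.52, 8.72 and 53.4 CPM after saline, 0.727, 0.711 and 0.108 CPM after i.v. Talazoparib, and 14.3, 1.42 and 0.207 CPM after NanoTLZ. Its highest tumor was thus saline replicate 3, the tumor with most muscle RNA, and NanoTLZ replicate 1 came second. The list's most abundant genes were *Hp*, the hemoglobin carrier haptoglobin, at 1655 CPM in NanoTLZ replicate 1 and 27.3 to 1090 CPM elsewhere, and *Nnat*, at 36.6 and 3.94 to 28.7 CPM.

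Of the 15 genes of that list with at least 30 counts, 6 were highest in NanoTLZ replicate 1 and 2 were at least 2 times the next tumor, namely *Pck1*, the enzyme of glyceroneogenesis, and the carboxylesterase *Ces1f*. *Pck1* was at 1.40 CPM there and at most 0.437 CPM elsewhere, and *Ces1f* at 0.963 and at most 0.414 CPM. *Cidea*, the relative of *Cidec* found in brown fat, was at 0.193 CPM in NanoTLZ replicate 1, the lowest of the 9 tumors, and at 6.65 CPM in saline replicate 3.

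Fatty acid uptake and the control of lipoprotein lipase included 1 gene with the pattern of the members. *Cd36*, the fatty acid translocase, was at 18.0 CPM in NanoTLZ replicate 1 and 2.30 to 6.19 CPM in the other 8 tumors, a lead of 2.91 times, and was named after its values were seen. *Gpihbp1*, which anchors lipoprotein lipase to capillaries, was at 5.20 CPM there, within the 3.26 to 13.1 CPM of the others, and the lipase inhibitor *Angptl4* at 78.2 CPM, within 15.8 to 150 CPM. Of the 14 genes of the list 11 were tested and 0 were called, against at most 0.019% of all tested genes in any comparison. *Fabp5*, the epidermal relative of *Fabp4*, had the largest change at an unadjusted p under 0.05 between treated and saline tumors. Its log2 fold change was -1.31 (SE 0.58, edgeR adjusted p = 0.372).

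The transcription factors, the synthesis enzymes and the lipolysis genes did not follow the members. Among 18 factors and coregulators of fat cell formation, 2 were highest in NanoTLZ replicate 1, and their summed level there, 876 CPM, was below the 1070 to 1326 CPM of the other tumors. *Cebpa*, which maintains the fat cell together with *Pparg*, was at 52.1 CPM there and 35.2 to 88.5 CPM elsewhere. Of 17 enzymes of fatty acid and triglyceride synthesis 1 was highest in that tumor, and of 12 lipolysis and other droplet genes 0 were.

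The droplet coats that most cells carry, *Plin2* and *Plin3*, were at 440 and 105 CPM in NanoTLZ replicate 1, within the 56.4 to 487 and 93.4 to 157 CPM of the others. The lipases *Lipe* and *Pnpla2* were also within the range, at 13.7 and 48.8 CPM. None of the 17 factors, 17 synthesis enzymes and 10 lipolysis genes tested was called in any comparison, against at most 0.019% of all tested genes. Between treated and saline tumors, *Agpat2*, an acyltransferase of triglyceride synthesis, had a log2 fold change of 0.72 (SE 0.21) and *Dgat1*, which makes triglyceride, 0.66 (SE 0.29), with edgeR adjusted p of 0.284 and 0.369.

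Of the 6 genes of adipokine receptors and the 12 of fat cell precursors and stroma, 1 each was highest in NanoTLZ replicate 1. *Adipor1* and *Adipor2*, the adiponectin receptors, were at 242 and 113 CPM in NanoTLZ replicate 1, and the leptin receptor *Lepr* was at 1.78 CPM there and 0.621 to 1.32 CPM elsewhere. *Cdh13*, which binds adiponectin on vessels, had the largest value of the 6 receptor genes between treated and saline tumors, a log2 fold change of 2.36 (SE 0.77, edgeR adjusted p = 0.289), and was at 13.0 CPM in NanoTLZ replicate 1 against 64.2 and 75.4 CPM in the other NanoTLZ tumors. The 12 precursor and stroma genes summed to 609 CPM in NanoTLZ replicate 1 and 368 to 1038 CPM in the others. The tested genes of both lists, 6 and 11, held 0 calls in any comparison, against at most 0.019% of all tested genes.

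Markers of the other cell types that a tumor piece can hold are given beside the members by their summed levels. The 8 brown fat genes summed to 6.45 CPM in NanoTLZ replicate 1 and 3.38 to 46.7 CPM elsewhere, with *Ucp1*, the uncoupling protein that defines brown fat, at 0.229 CPM or less in all tumors. The 10 macrophage genes came to 4669 CPM, and to 4199 to 5119 CPM over the NanoTLZ group, 1785 to 3302 CPM over the i.v. Talazoparib group and 659 to 3087 CPM over the saline group. The 10 endothelial genes came to 253 CPM against 102 to 320 CPM in the other tumors. For the macrophage genes, only NanoTLZ replicate 2, at 5119 CPM, lay above NanoTLZ replicate 1. Both cell types also make *Fabp4* or *Lpl*, and their part in the levels of these 2 genes was not tested.

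The 9 fibroblast genes came to 4315 CPM in NanoTLZ replicate 1 against 2169 to 7206 CPM, the 8 mammary epithelial genes to 5289 against 3627 to 8479 CPM, the 9 milk genes to 454 against 21.2 to 3500 CPM, and the 10 muscle genes to 20.2 against 5.30 to 725 CPM. For each of these lists the sum in NanoTLZ replicate 1 lay within the range of the other 8 tumors. Apart from the 2 muscle genes, *Myh4* and *Myl1*, between treated and saline tumors, no tested gene of these lists was called in any comparison. At most 0.019% of all tested genes were called in any of them. Of the 9 muscle genes tested, 8 were lower at an unadjusted p under 0.05 after i.v. Talazoparib and 7 after NanoTLZ, by edgeR. The median log2 fold changes of the 9 were -6.91 and -7.00. Such a p was found for 10.4% and 8.99% of all genes, in either direction. The part of these cell types in the levels of the adipocyte genes was not tested.

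**Figure D4:**
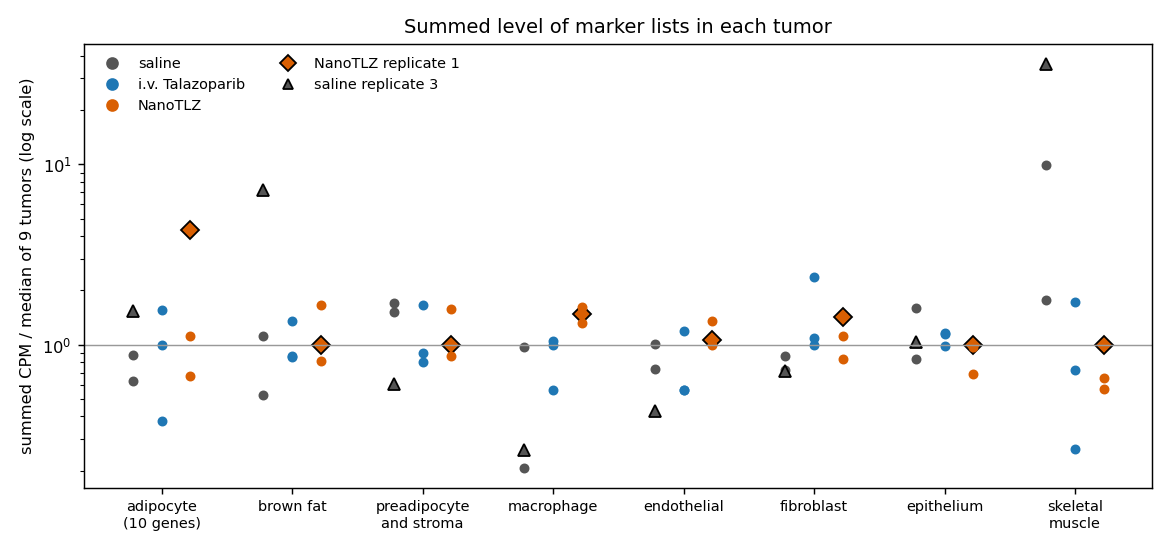
Summed CPM of the 10 adipocyte genes and of 7 lists of marker genes in each tumor, divided by the median of the 9 tumors (vertical axis, log scale). Circles are tumors colored by group, the diamond is NanoTLZ replicate 1 and the triangle saline replicate 3; the diamond is the highest point for the adipocyte genes, at 160 CPM before division, and for none of the other 7 lists, and the triangle is the highest for skeletal muscle, at 725 CPM, and brown fat, at 46.7 CPM.

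The genes outside the lists whose log2 CPM over the 9 tumors was most like the mean of the tested members were *Lsm14b* (r = 0.903), *Ddx52* (r = 0.902), *Mipol1* (r = 0.893) and *Trp53* (r = 0.872), among 10 taken by a rule. They were followed by *Mrrf*, *Armcx4*, *Hs6st2*, *Apbb2*, *Col15a1* and *Rbm28*, down to r = 0.831. Without NanoTLZ replicate 1 the r of these 10 genes ranged from 0.374 for *Apbb2* to 0.786 for *Hs6st2*, with 0.471 for *Trp53*. For single members, the most alike genes were *Ackr4* for *Fabp4* (r = 0.945), *Gosr1* for *Plin4* (r = 0.907), the B cell receptor gene *Cd79b* for *Pparg* (r = 0.919), *Col15a1*, a basement membrane collagen, for *Lpl* (r = 0.951) and *Efcab5* for *Cfd* (r = 0.924). None of the 3 most alike genes of any tested member was another member. All these r were picked as the highest among many genes over only 9 tumors. High values can arise from that choice alone, and no p was computed.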

How the data were processed

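RNA from 9 mammary gland tumors, 3 per group, was sequenced, and the table the authors deposited holds raw counts of reads on each gene, not normalized. The submitters' processing notes name TopHat2, DESeq2 and the build mm10. The counting program, the gene annotation and the strand setting are not given in the sources used here. Groups were taken from the treatment label of each tumor, and replicates were numbered in the order of the records. The labels do not say whether tumors came from separate mice, and the study gives 3 mice per group. No sequencing batch is given.

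Symbols and GRCm38 positions were taken from GENCODE M21, which matched 34490 of the 35275 identifiers and left 785 without a match. Total counts per tumor ranged from 17538380 to 21194980. Genes were kept by filterByExpr in edgeR (minimum count 10, minimum total 15), which left 15821. Counts were scaled by TMM, and a model with a coefficient for each group was fitted to the 9 tumors together (glmQLFit and glmQLFTest, edgeR 4.0.16, R 4.3.3). Benjamini-Hochberg adjustment covered every tested gene, and an adjusted p under 0.05 was called. The SE of an edgeR log2 fold change was derived as its absolute value divided by the square root of the F statistic. Log2 CPM used a prior count of 2. Counting intervals are exact Clopper-Pearson 95% intervals, and both these and the floor of 3 counts cover counting error only. Levels per kb used the APPRIS principal transcript.

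Alternatives were DESeq2 1.42.0 on all 9 tumors or on the groups compared, RLE or upper quartile scaling, edgeR restricted to the groups compared, no filter and at least 10 counts in every tumor, robust dispersion, and each tumor left out in turn. Leaving out both NanoTLZ replicate 1 and saline replicate 3 was added after seeing the data. The scripts were tested on simulated counts with known changes.

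The 10 members, the marker and pathway lists and the tests were chosen with earlier results of these data known. The genes named were all members, for each list the most changed genes at an unadjusted p under 0.05 between treated and saline tumors (up to 3 in each direction) and the 2 most abundant, of which some are shown, and the genes most alike by Pearson's r of log2 CPM (mean CPM of at least 1). Others are marked as named after their values were seen. Of the listed symbols, *Tusc5* was not found. Promoter windows are from RefSeq (GRCm38.p6). Python 3.11.15 with matplotlib 3.10.9, scipy 1.17.1, numpy 2.4.6 and pandas 2.3.3 was used for the remaining steps.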

Additional observations from a re-analysis of the deposited data

Results flagged for a closer look

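For 7 of the 10 adipocyte genes, NanoTLZ replicate 1 stood apart among the 6 tumors that received Talazoparib, by the gap between it and the nearest other tumor divided by the whole range of the 6. This ratio was 0.925 for *Lep*, 0.911 for *Cfd*, 0.891 for *Plin4*, 0.883 for *Cidec*, 0.850 for *Plin1*, 0.829 for *Adipoq* and 0.803 for *Fabp4*, above the critical value of 0.625 for 6 samples in each case. The ratio pools both treated groups, since a group of 3 is too small for it. The critical value is exceeded in about 1 of 20 groups of 6 values drawn from 1 normal distribution. The CPM used here pool both treatments and include genes with few reads, so that rate need not hold for them. The 7 ratios come from 1 tumor and are not independent of each other. *Pparg*, *Lpl* and *Retn* did not exceed the value.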

How the results depend on the processing

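No adipocyte gene was called under any alternative. Of 332 values of the tested members under the alternatives, 306 kept their direction and 26 changed sign. Over the fits that left out 1 tumor, the log2 fold change against saline ranged from -0.12 to 0.87 for *Lpl* after i.v. Talazoparib and, after NanoTLZ, from -1.26 to 1.25 for *Fabp4*, -1.45 to 2.63 for *Plin4*, -0.26 to 0.98 for *Pparg* and -0.57 to 2.66 for *Cfd*. Between NanoTLZ and i.v. Talazoparib it ranged from -0.21 to 1.67 for *Fabp4*, -1.74 to 2.33 for *Plin4*, -0.0665 to 1.30 for *Lpl* and -0.00962 to 3.20 for *Cfd*. With both treated groups against saline it ranged from -1.15 to 0.62 for *Fabp4*, -0.58 to 1.46 for *Plin4*, -0.52 to 0.47 for *Pparg* and -0.56 to 1.06 for *Cfd*. The lowest values after NanoTLZ came without NanoTLZ replicate 1, and the positive values of *Fabp4* and *Pparg* in the pooled comparison came without saline replicate 3.

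With both of those tumors left out, the values that changed sign were -0.24 for *Fabp4*, -1.42 for *Plin4* and -0.31 for *Cfd* between NanoTLZ and saline, -0.21 for *Fabp4*, -1.74 for *Plin4*, -0.0671 for *Lpl* and -0.0143 for *Cfd* between NanoTLZ and i.v. Talazoparib, and -0.55 for *Plin4*, 0.17 for *Pparg* and -0.30 for *Cfd* between both treated groups and saline. *Pparg* at 0.38 and *Lpl* at 0.49 between NanoTLZ and saline, and *Pparg* at 0.42 between NanoTLZ and i.v. Talazoparib, stayed positive.

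The number of genes called over the whole table depended on the tool. For i.v. Talazoparib against saline edgeR called 0, and 5 without the filter, and DESeq2 called 194 on all 9 tumors and 92 on the 6 compared. For NanoTLZ against saline edgeR called 1, 6 without the filter and 0 on the 6 tumors compared, and DESeq2 called 110 and 171. For NanoTLZ against i.v. Talazoparib edgeR called 0 and DESeq2 3 and 21. For both treated groups against saline edgeR called 3, 33 without the filter, 1 with at least 10 counts in every tumor and 1 with both tumors left out, and DESeq2 called 273. With 1 tumor left out, these counts ranged from 0 to 0, 0 to 3, 0 to 0 and 0 to 18 in the same order, and the cause was not tested. The count of 18 came without saline replicate 1, as did that of 3.

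No paired analysis was possible because replicate numbers were given here in record order and the labels pair no tumors across groups. Depth limits *Lep*, *Plin1*, *Adipoq*, *Retn* and *Cidec*, which had 37 to 137 reads in all 9 tumors together.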

Other observations

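NanoTLZ replicate 1 was at least 2 times the next tumor for 58 of the 17742 genes with at least 30 counts in all, and the adipocyte genes *Cfd*, *Plin4*, *Cidec*, *Plin1*, *Adipoq*, *Lep* and *Retn* took ranks 2, 3, 5, 6, 12, 13 and 46 by the size of that lead. Of these members, *Plin1* and *Lep* reached 30 counts only through NanoTLZ replicate 1. The other genes among the 58 were named after their values were seen. They included *Ms4a1*, which encodes CD20, at 2.50 CPM against at most 0.466 CPM elsewhere, *Cd22* at 2.12 against 0.824 CPM, the kinase *Blk* at 1.78 against 0.582 CPM and the immunoglobulin heavy chain *Ighg2b* at 10.4 against 4.94 CPM.

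The atypical chemokine receptor *Ackr1* was at 1.73 CPM against at most 0.546 CPM and the chemokine *Ccl21a* at 1.59 against 0.524 CPM. The matrix proteases *Mmp7*, *Mmp10* and *Mmp1b* were at 2.79, 82.7 and 9.39 CPM against at most 0.362, 18.2 and 2.90 CPM. The gene of filamin C, *Flnc*, was at 220 against 45.0 CPM, and *Trp53* at 108 against 45.6 CPM. Whether these genes and the adipocyte genes come from the same piece of tissue was not tested.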
